A study of Arabidopsis thaliana with 6 samples.

Results

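The genes described here are the 5 RGF receptor kinase genes of Arabidopsis thaliana (AT3G24240, AT5G48940, AT4G26540, AT5G56040 and AT1G34110) and the 5 SERK co-receptor genes (SERK1, SERK2, BAK1, BKK1 and SERK5). They were listed by gene identifier, with earlier results of these data known, and are 10 of the 30424 genes in the count tables. All 10 passed the low-count filter, which kept 16737 genes. The libraries came from the dissected root meristematic zone of Col-0 seedlings, homozygous for a HYP2-GFP transgene, taken at the age of 6 days. The Mock group was held for 1 h in liquid MS medium with water and the RGF1 group for 1 h with the peptide RGF1 at 100 nM, with 3 libraries each. Both groups carry the transgene, which guided the cut, and each RNA sample pooled 20 root sections, so single plants were not measured. Total counts ranged from 5421243 to 9495012 per library, and the counts of a member ranged from 57 to 2751.

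RGF1 (Root meristem growth factor 1) belongs to a family of secreted, tyrosine-sulfated peptides that maintain the root stem cell niche. The peptide binds the extracellular leucine-rich repeats of a receptor kinase, and the bound receptor then pairs with a SERK, a short leucine-rich repeat kinase that serves as a shared co-receptor. In the root meristem, signalling from this complex runs through a MAP kinase cascade to the transcription factor gene RITF1 and to the PLETHORA proteins. The receptors are also called RGI or RGFR, with numbers that differ between research groups, so locus identifiers are used here.

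Coding stretches from both families carry features known for peptide binding and for kinase activity. The first is the RxGG motif (arginine, any residue, glycine, glycine), which in the receptors lies in the repeats and contacts the sulfate group of the peptide. Its codons occurred once in each of the 5 receptors and in none of the 5 SERK genes. Over the 27444 nuclear protein-coding genes, 9.40% held these letters at least once, so the letters by themselves are not rare. Each line below gives the stretch from the TAIR10.1 RefSeq genome with the 4 codons in capitals, 5′ to 3′ on the coding strand.
AT3G24240: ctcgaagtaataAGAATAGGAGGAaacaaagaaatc
AT5G48940: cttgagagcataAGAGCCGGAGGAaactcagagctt
AT4G26540: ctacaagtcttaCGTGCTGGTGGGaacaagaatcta
AT5G56040: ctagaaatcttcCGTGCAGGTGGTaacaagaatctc
AT1G34110: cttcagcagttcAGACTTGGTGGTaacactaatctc

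The second is the catalytic loop of the kinase, where most active plant kinases have an arginine just before the catalytic aspartate. It is shown for the SERK genes because SERK5 of the Col-0 accession is known for having lost that arginine. The codon at that place, in capitals, encoded arginine in SERK1, SERK2, BAK1 and BKK1 and not in SERK5. Among the receptors it encoded arginine in AT3G24240, AT5G48940 and AT1G34110 and not in AT4G26540 or AT5G56040, which both have GGT there.
SERK1: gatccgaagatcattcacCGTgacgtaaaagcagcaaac
SERK2: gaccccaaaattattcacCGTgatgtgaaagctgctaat
BAK1: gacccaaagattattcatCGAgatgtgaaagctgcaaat
BKK1: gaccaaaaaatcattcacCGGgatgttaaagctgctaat
SERK5: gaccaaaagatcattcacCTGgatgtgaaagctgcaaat

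The genes lie at separate loci except for BKK1 and SERK5, which are close neighbours on chromosome 2. In TAIR10.1 coordinates AT3G24240 lies at chromosome 3, 8780238 to 8784453, and AT5G48940 at chromosome 5, 19839663 to 19843859. AT4G26540 lies at chromosome 4, 13394447 to 13398307, AT5G56040 at chromosome 5, 22694823 to 22698645, and AT1G34110 at chromosome 1, 12417012 to 12421792. Each receptor has its longest coding sequence in 2 exons, against 11 or 12 in the SERK genes. SERK1 (AT1G71830) lies at chromosome 1, 27018158 to 27022117, SERK2 (AT1G34210) at chromosome 1, 12458564 to 12462905, and BAK1 (AT4G33430, also SERK3) at chromosome 4, 16086311 to 16090832. BKK1 (AT2G13790, also SERK4) spans 5741592 to 5746833 and SERK5 (AT2G13800) 5753103 to 5757353.

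BKK1 and SERK5 share so much sequence that reads may have been split between them, or dropped, in counting. Their coding sequences were 89.3% identical over 1848 aligned bases and had 1 identical run of 473 bases, which is 25.4% of the BKK1 and 26.2% of the SERK5 coding sequence. That run begins, in both genes, with the 60 bases shown here because reads lying wholly inside the run match both genes (BKK1 coordinates chr2:5746009-5746068, plus strand).
Shared start: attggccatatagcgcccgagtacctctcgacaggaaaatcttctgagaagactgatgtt

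Within each family no other couple of members shared an identical coding run longer than 41 bases, a length reached by SERK1 with SERK2 and by AT4G26540 with AT5G56040. Couples of a receptor with a SERK gene were not compared. Some members also overlap genes on the opposite strand, and whether strand was used in counting is not given in the sources used here. SERK2 overlaps AT1G34220 by 57 exonic bases, and that gene had 715 counts in the Mock and 551 in the RGF1 libraries. BAK1 overlaps AT4G33420 by 78 bases, with 23 counts in the Mock and 27 in the RGF1 libraries. AT4G26540 is overlapped over 2764 bases by the antisense gene AT4G26542, and SERK1 over 158 bases by AT1G71828. The count tables hold no counts for these 2 overlapping genes.

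In the mock-treated meristem the receptors AT5G56040 and AT3G24240 and the co-receptor BAK1 were the most abundant of the 10 transcripts per length. Levels between genes are given as CPM per kb (library-size-normalised counts (CPM), scaled by TMM and divided by the union exon length), as mean ± SD over 3 Mock libraries. AT5G56040 stood at 72.96 ± 2.60, AT3G24240 at 52.5 ± 10.4 and BAK1 at 50.9 ± 12.6 CPM per kb (n = 3). These levels were above those of 91.7%, 87.96% and 87.5% of the 16588 tested genes with an annotated length. The range of AT5G56040 did not overlap that of AT3G24240, whereas AT3G24240 and BAK1 overlapped, with AT3G24240 above BAK1 in 1 of 3 libraries.

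AT5G48940 came next at 27.1 ± 2.31 CPM per kb (n = 3), apart from its neighbours on both sides. Below it, each member's range over the Mock libraries overlapped that of the next: SERK1 at 15.5 ± 5.23, AT1G34110 at 12.0 ± 1.96, BKK1 at 10.6 ± 4.91 and AT4G26540 at 8.58 ± 5.06 CPM per kb. SERK2 at 5.88 ± 2.01 and SERK5 at 4.64 ± 0.311 CPM per kb were lowest, with SERK5 above 24.65% of the tested genes. Divided by coding length in place of exon length, the order changed for 1 couple of members, with BAK1 (73.6 CPM per kb) then above AT3G24240.

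**Figure D1:**
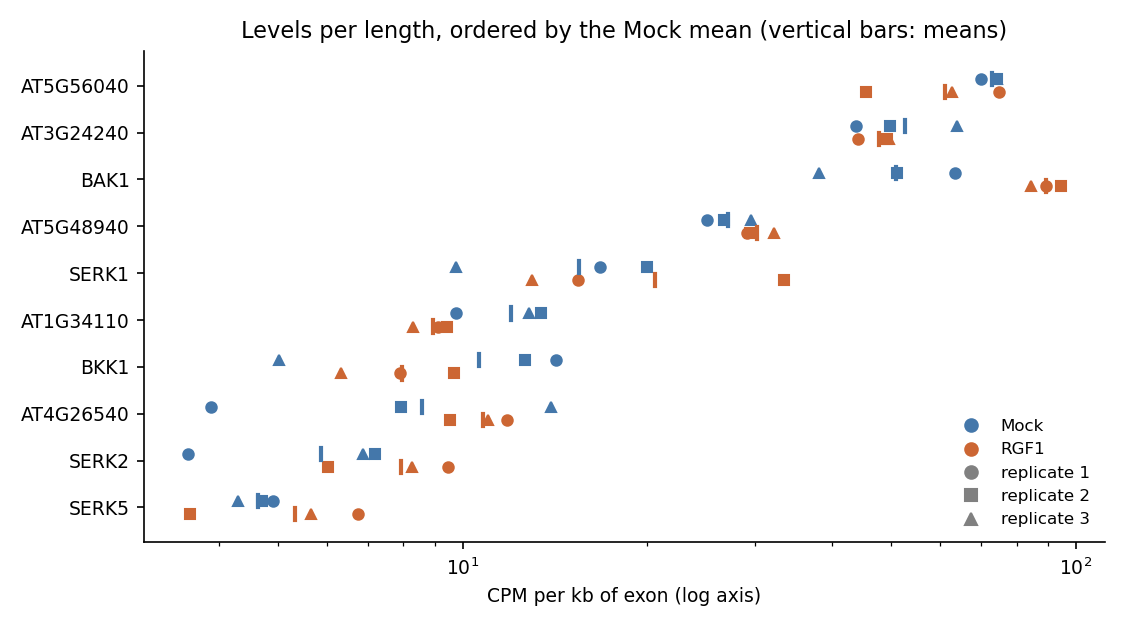
Levels of the 10 genes in CPM per kb of exon (log axis), ordered by the Mock mean; blue symbols are the 3 Mock and orange symbols the 3 RGF1 libraries, and vertical bars are means. AT5G56040 leads in Mock at 72.96 CPM per kb and BAK1 leads after RGF1 at 89.4 CPM per kb.

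Within the receptor family, AT5G56040 made up 42.5% ± 3.90 and AT3G24240 30.2% ± 2.33 of the summed CPM per kb in Mock (SD, n = 3). AT4G26540 and AT1G34110 together with AT5G48940 filled the rest, at 4.77% ± 2.31, 6.93% ± 0.755 and 15.7% ± 0.637 (SD, n = 3). Within the SERK family BAK1 made up 58.2% ± 4.28 and SERK1 17.5% ± 3.02 (SD, n = 3). Each family was thus dominated by 1 or 2 of its members, with the share of AT5G56040 between 38.2% and 45.9% and that of BAK1 between 53.4% and 61.7% in single Mock libraries.

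After 1 h of RGF1, none of the 5 receptor kinase genes passed the test, and of the SERK genes BAK1 alone was higher in all RGF1 libraries than in all Mock libraries. That pattern was found in 7.3% of the tested genes, and the receptor AT1G34110 had the reverse one, found in 6.18%. In edgeR's quasi-likelihood test without a replicate block, 0 of the 10 genes passed at an adjusted p below 0.05, where 0.496% of the tested genes did. At an unadjusted p under 0.05 the count was 1 of 10, where it was 7.76% of the tested genes. Without the block 0 of the 10 were called by DESeq2 and by limma voom too, at background shares of 1.43% and 0.412%. The DESeq2 share is over the 22012 genes with any count, a larger set than the tested genes. With the replicate number as a block, edgeR called 1 of the 10, BAK1, which was higher, where 1.8% of the tested genes passed and 1.24% passed upward. The median log2 fold change was -0.14 over the receptors and 0.41 over the SERK genes, against -0.01 over all tested genes. The family medians are the values of single genes, AT3G24240 and SERK1, whose signs each turned when 1 library was left out. These are bulk sections, so a change in the share of cells of one type and a change in RNA per cell cannot be told apart.

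**Figure D2:**
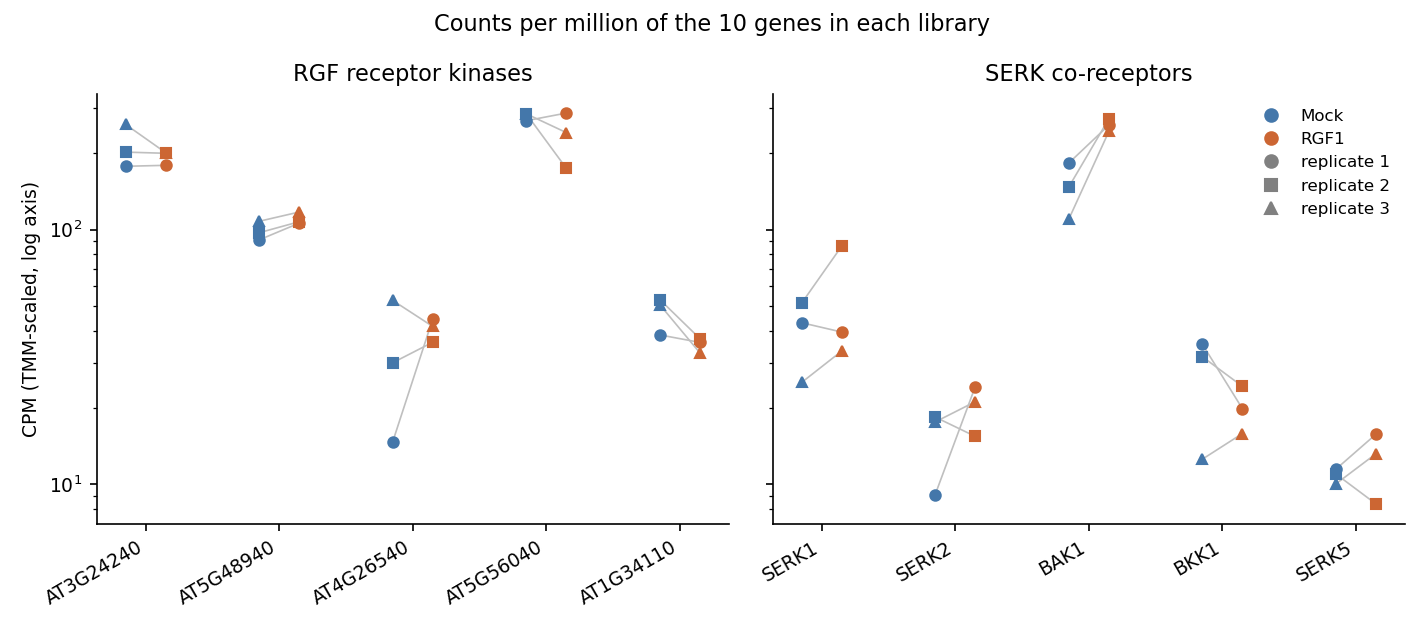
CPM (TMM-scaled, log axis) of each gene in each library, Mock in blue and RGF1 in orange, with grey lines joining libraries of the same replicate number. BAK1 lies between 110 and 182 CPM in Mock and between 243 and 272 CPM after RGF1, and AT1G34110 is the other gene whose groups do not overlap.

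BAK1, the co-receptor of the brassinosteroid receptor BRI1, the flagellin receptor FLS2 and many other receptor kinases, had 182, 147 and 110 CPM in the Mock libraries, in the order of their replicate numbers, and 257, 272 and 243 CPM after RGF1. The 3 RGF1 libraries lay close together and above the 3 Mock libraries, which were spread more widely. Over the tested genes, 7.3% had all RGF1 libraries above all Mock libraries in this way. The log2 fold change was 0.81 ± 0.25 (SE), with a 95% interval of 0.27 to 1.35, and did not pass over all genes (edgeR adjusted p = 0.294, unadjusted p = 0.00632, rank 359 of 16737).

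With the replicate block the log2 fold change of BAK1 was 0.84 ± 0.17 (SE) and passed (edgeR adjusted p = 0.0293). The block takes same-numbered libraries as pairs, which the labels do not state. The log2 ratios within replicate numbers 1, 2 and 3 were 0.50, 0.89 and 1.14, all upward, as in 17.4% of the tested genes. The call was lost with pair 2 or pair 3 left out (edgeR adjusted p of 0.0743 and 0.278) and held without pair 1 (0.0119). Over the 18 alternative settings the log2 fold change of BAK1 lay between 0.64 and 1.02.

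The share of BAK1 in the SERK family was 61.7%, 53.4% and 59.5% of the summed CPM per kb in Mock and 69.3%, 64.2% and 71.8% after RGF1. The groups did not overlap, and the ratio of BAK1 to the other 4 SERK genes was between 1.15 and 1.61 in Mock and between 1.79 and 2.54 after RGF1. The share and the ratio were chosen after the values of BAK1 were seen and are a description, with no test.

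SERK1 and SERK2, which act together in anther development and also serve as RGF co-receptors, had overlapping groups. SERK1 had 43.1, 51.4 and 25.1 CPM in Mock and 39.6, 86.0 and 33.3 CPM after RGF1, so that RGF1 replicate 2 stood apart from the rest. Its log2 fold change was 0.41 ± 0.40 (SE; edgeR adjusted p = 0.890) and became -0.14 without RGF1 replicate 2. SERK2 had 9.11, 18.4 and 17.6 CPM in Mock and 24.2, 15.4 and 21.1 CPM after RGF1, with the lowest value in Mock replicate 1. Its log2 fold change was 0.43 ± 0.42 (SE; edgeR adjusted p = 0.893), and it was between 0.0053 and 0.83 over the 18 alternative settings.

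BKK1, which restrains cell death together with BAK1, had 35.5, 31.7 and 12.5 CPM in Mock and 19.8, 24.2 and 15.8 CPM after RGF1. The groups overlapped, with the lowest value in Mock replicate 3, and the log2 fold change was -0.41 ± 0.43 (SE; edgeR adjusted p = 0.901). SERK5 had 11.5, 11.0 and 10.04 CPM in Mock and 15.7, 8.37 and 13.2 CPM after RGF1, with RGF1 libraries on both sides of the Mock libraries (log2 fold change 0.20 ± 0.47 SE, edgeR adjusted p = 0.971). Because the 2 genes share the 473-base run shown above, their sum is given as well. It covers reads split between them but not reads dropped in counting. The sum was 37.4 ± 12.999 CPM in Mock and 32.4 ± 3.27 CPM after RGF1 (n = 3), a difference smaller than the SD of the Mock libraries.

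AT5G56040, the most abundant receptor, had 267, 285 and 285 CPM in Mock and 287, 174 and 240 CPM after RGF1. The groups overlapped, with 1 low library, RGF1 replicate 2. The log2 fold change was -0.26 ± 0.25 (SE; edgeR adjusted p = 0.889), and its 95% interval ran from 0.580-fold to 1.21-fold. AT3G24240, the next receptor by level, had 177, 201 and 259 CPM in Mock and 179, 199 and 200 CPM after RGF1. The RGF1 values lay inside the range of the Mock values, and Mock replicate 3 was the high library. The log2 fold change was -0.14 ± 0.24 (SE; edgeR adjusted p = 0.953), with an interval from 0.636-fold to 1.29-fold, and its sign turned without Mock replicate 3 (0.021).

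AT5G48940, the receptor with the longest alignment to AT3G24240 (66.0% identity over 2957 coding bases), varied little between libraries. It had 91.1, 97.2 and 108 CPM in Mock and 106, 107 and 117 CPM after RGF1, so that Mock replicate 3 fell among the RGF1 libraries. Within replicate numbers 1, 2 and 3 the log2 ratios were 0.22, 0.14 and 0.12, all upward, as in 17.4% of the tested genes. The estimated log2 fold change was 0.16 ± 0.23 (SE; edgeR adjusted p = 0.941), with an interval from 0.788-fold to 1.58-fold. The coefficient of variation was 8.54% in Mock and 5.55% after RGF1.

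AT4G26540 varied most in Mock, with 14.7, 29.996 and 52.7 CPM, against 44.6, 36.1 and 41.6 CPM after RGF1. The RGF1 values all lay inside the range of the Mock values, and the coefficient of variation was 58.9% in Mock and 10.6% after RGF1. The log2 fold change of 0.33 ± 0.41 (SE; edgeR adjusted p = 0.925) had an interval from 0.683-fold to 2.32-fold and turned to -0.017 without Mock replicate 1. Changes up to 2-fold upward therefore lie within the interval for this receptor, which is not so for the other 4.

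AT1G34110 had 38.6, 53.1 and 50.7 CPM in Mock and 36.0, 37.3 and 32.8 CPM after RGF1. It was the 1 receptor gene whose groups did not overlap, with the RGF1 libraries lower, a pattern seen in 6.18% of the tested genes. The log2 fold change was -0.42 ± 0.29 (SE) with an interval from 0.487-fold to 1.14-fold, and it did not pass without the block (edgeR adjusted p = 0.811) or with it (edgeR adjusted p = 0.584). The ratios within replicate numbers 1, 2 and 3 were all downward, at -0.10, -0.51 and -0.63 on the log2 scale, as in 17.9% of the tested genes.

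**Figure D3:**
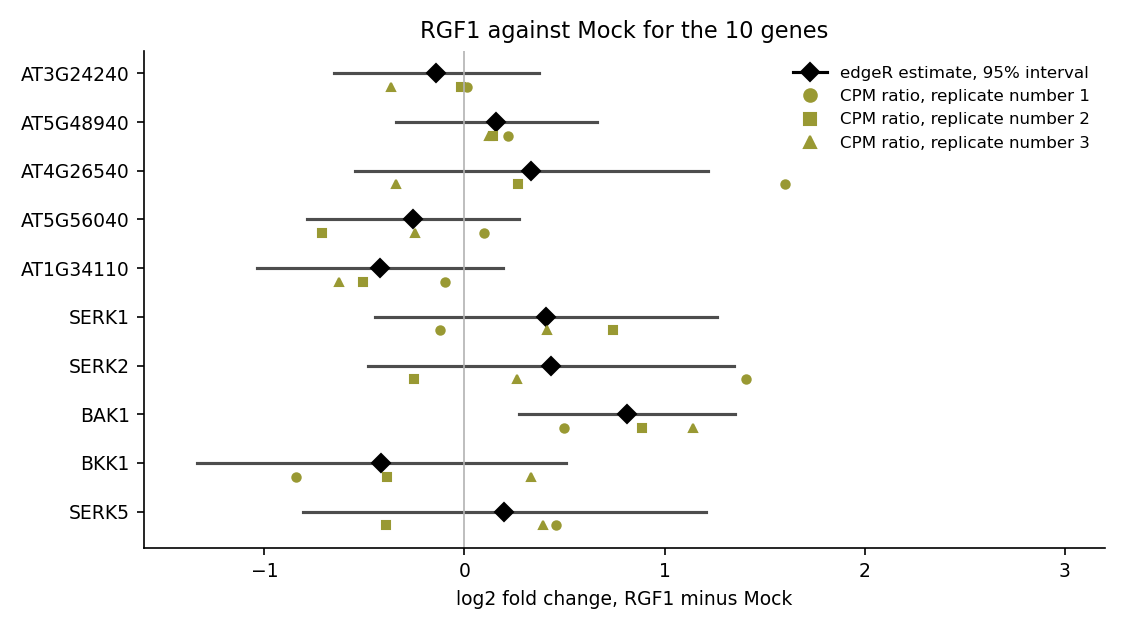
Log2 fold change of RGF1 minus Mock for the 10 genes, with black diamonds for the edgeR estimate, lines for its 95% interval and olive symbols for the CPM ratio within each replicate number. The interval of BAK1, from 0.27 to 1.35, is the one that does not include 0.

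Summed per family, the receptor levels of the groups overlapped, while the SERK levels did not. The 5 receptors summed to 152, 172 and 195 CPM per kb in Mock and to 169, 143 and 164 CPM per kb after RGF1, with overlapping groups. The 5 SERK genes summed to 103, 95.6 and 64.1 CPM per kb in Mock and to 129, 147 and 118 CPM per kb after RGF1, and these groups did not overlap. The ratio of the SERK sum to the receptor sum was 0.520 ± 0.175 in Mock and 0.836 ± 0.169 after RGF1 (SD, n = 3). In RGF1 replicate 2 alone the SERK sum exceeded the receptor sum, with a ratio of 1.03. These sums are given as a description. BAK1, the 1 SERK gene whose groups did not overlap, makes up most of the SERK sum. Of single tested genes, 7.3% had all RGF1 libraries above all Mock libraries. Per kb of exon, BAK1 was above AT5G56040 in 0 of 3 Mock and in 3 of 3 RGF1 libraries. Per kb of coding sequence it was above in 1 of 3 Mock libraries, replicate 1 (91.69 against 81.7 CPM per kb), and again in 3 of 3 RGF1 libraries.

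**Figure D4:**
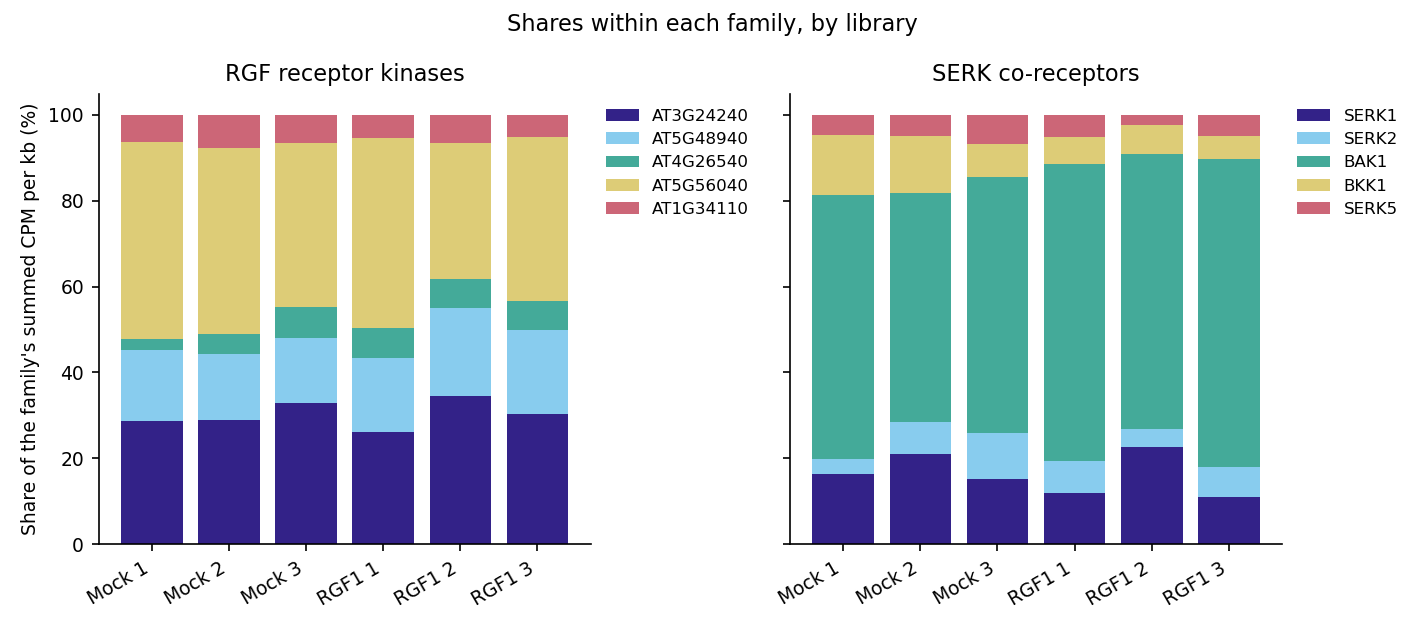
Share of each gene in the summed CPM per kb of its family (percent), by library, for the receptors and for the SERK genes. The BAK1 segment takes 53.4% to 61.7% in Mock and 64.2% to 71.8% after RGF1, while AT5G56040 takes 31.8% to 45.9% over the 6 libraries.

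Among other genes of the pathway, receptor kinases that use SERK co-receptors held the 1 gene that passed the test. The 6 lists, chosen with earlier results of these data known, held 73 genes, of which 62 were tested, 1 passed upward and 0 downward (backgrounds of 0.466% and 0.0299%), and their median log2 fold change was 0.11. With the block 5 passed upward and 0 downward, against 1.24% and 0.562% of all tested genes. A total of 10 of the 62 had all RGF1 libraries above all Mock libraries, and 3 the reverse, where 7.3% and 6.18% of all tested genes did.

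Of 18 tested receptor kinases for other ligands that use SERK co-receptors, 1 rose, 0 fell, DESeq2 and the block fit each called 2, and the median log2 fold change was 0.14. Over all tested genes 0.496% were called and 1.8% were called with the block, and DESeq2 called 1.43% of its 22012 genes. AT4G08850, a leucine-rich repeat receptor kinase in the annotation, had 77.7, 30.6 and 47.4 CPM in Mock and 216, 200 and 302 CPM after RGF1. All RGF1 libraries were above all Mock libraries, and it rose by 2.20 ± 0.34 (SE) in log2 fold change (edgeR adjusted p = 0.00868), a call that held in each of the 18 alternative settings. RLK7 (AT1G09970), a receptor of stress-related peptides that also belongs to the LRR-XI class, had 128, 116 and 44.8 CPM in Mock and 276, 253 and 167 CPM after RGF1. Its log2 fold change of 1.27 ± 0.36 (SE) passed with the block (edgeR adjusted p of 0.228 without and 0.00315 with it), and with the block it passed whichever pair was left out. PSKR2, a phytosulfokine receptor, and BRL3, a brassinosteroid receptor, had log2 fold changes of 1.09 ± 0.31 and 1.03 ± 0.40 (SE) and did not pass (edgeR adjusted p of 0.228 and 0.504).

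The lists of other kinases from the members' own sequence classes held no call in edgeR without the block. The list of other kinases of the receptors' own class, LRR-XI, leaves out RLK7, which is counted above. Of its 10 tested genes, 0 passed in edgeR and 1 had an unadjusted p under 0.05, AT5G25930, while DESeq2 called 1 and the block fit 0. AT5G25930 had a log2 fold change of 1.62 ± 0.47 (SE; edgeR adjusted p = 0.245), and AT4G28650, AT1G08590 and BAM3 had values from -0.81 to -0.54. Of 7 tested other kinases of the SERK class, LRR-II, 0 passed in edgeR and 2 were under 0.05 in unadjusted p, while the block fit and DESeq2 each called 1. Over all tested genes the shares were 0.496% called, 7.76% under 0.05 in unadjusted p and 1.8% called with the block. DESeq2 called 1.43% of its 22012 genes. AT5G65240 had 18.2, 8.95 and 10.5 CPM in Mock and 55.2, 39.0 and 28.3 CPM after RGF1, with groups that did not overlap. Its log2 fold change of 1.70 ± 0.41 (SE) passed with the block (edgeR adjusted p of 0.112 without and 0.0198 with it), but not with any of the 3 pairs left out (0.0650 to 0.0864). NIK3, SARK and NIK2, kinases of the same class, had 0.71 ± 0.31, 0.57 ± 0.36 and -1.02 ± 1.02 (SE; edgeR adjusted p of 0.595, 0.793 and 0.898). The median log2 fold change was -0.06 over the LRR-XI list and 0.31 over the LRR-II list.

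Among 10 tested regulators and cytoplasmic kinases that work with SERK proteins, 0 passed in edgeR without the block, 3 were under 0.05 in unadjusted p, DESeq2 made 0 calls, and the median log2 fold change was 0.66. Over all tested genes 0.496% passed and 7.76% were under 0.05, and DESeq2 called 1.43% of its 22012 genes. SOBIR1, a receptor kinase that partners BAK1 in immunity, had 87.5, 40.7 and 31.2 CPM in Mock and 130, 128 and 87.0 CPM after RGF1. The groups touched at Mock replicate 1, and the log2 fold change of 1.11 ± 0.36 (SE) passed with the block (edgeR adjusted p of 0.356 without and 0.0237 with it). With the block that call held without pair 1 (0.00534) and was lost without pair 2 (0.0813) or pair 3 (0.182). The cytoplasmic kinase BIK1, which relays signals from BAK1 complexes, BKI1, an inhibitor of BRI1, and BIR1, which binds BAK1, had log2 fold changes of 1.54 ± 0.66, 1.71 ± 0.75 and 0.84 ± 0.40 (SE). Their edgeR adjusted p were 0.597, 0.601 and 0.653.

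On the ligand side, 7 of 10 genes for RGF precursors and the sulfotransferase TPST were tested, and 0 passed in edgeR, with the block or in DESeq2, with 2 at an unadjusted p under 0.05 (7.76% of all tested genes) and a median log2 fold change of -0.96. The precursor gene RGF4 had 28.5, 20.3 and 32.3 CPM in Mock and 36.4, 43.9 and 42.8 CPM after RGF1, with the RGF1 libraries higher and a log2 fold change of 0.60 ± 0.32 (SE; edgeR adjusted p = 0.703). The precursor gene RGF2 had a log2 fold change of -1.52 ± 0.81 (SE; edgeR adjusted p = 0.709). The precursor gene RGF7 had 27.4, 2.13 and 13.8 CPM in Mock and 4.48, 1.03 and 0.188 CPM after RGF1, with overlapping groups and a log2 fold change of -2.86 ± 1.00 (SE; edgeR adjusted p = 0.412). Its counts were 256, 19 and 88 in Mock and 43, 7 and 1 after RGF1. The precursor gene of the applied peptide, RGF1, had 2.04, 1.46 and 3.92 CPM in Mock and 0.521, 0.294 and 0.565 CPM after RGF1, with the RGF1 libraries lower. Those 3 RGF1 values rest on 5, 2 and 3 counts, and the log2 fold change was -2.38 ± 1.04 (SE; edgeR adjusted p = 0.597).

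Downstream of the receptors, 10 of 10 genes were tested and 0 passed, with 2 at an unadjusted p under 0.05, 1 called by DESeq2 and 1 with the block, and a median log2 fold change of 0.14. Over all tested genes 7.76% were under 0.05 and 1.8% were called with the block, and DESeq2 called 1.43% of its 22012 genes. RITF1 (AT2G12646), the gene called in both, had 35.5, 48.4 and 65.9 CPM in Mock and 87.1, 116 and 116 CPM after RGF1, with the RGF1 libraries higher. Its log2 fold change was 1.09 ± 0.29 (SE; edgeR adjusted p of 0.182 without and 0.0179 with the block), and leaving out any 1 of the 3 pairs took the blocked fit above 0.05 (0.0515 to 0.0773). PLT2, a PLETHORA transcription factor of the stem cell niche, had 11.0, 5.82 and 10.8 CPM in Mock and 13.5, 35.96 and 15.6 CPM after RGF1. The RGF1 libraries were higher, with replicate 2 apart from the rest, and the log2 fold change was 1.23 ± 0.50 (SE; edgeR adjusted p = 0.549). The MAP kinase genes MPK3 and MPK6, which carry the receptor signal, had log2 fold changes of 0.40 ± 0.30 and 0.31 ± 0.32 (SE; edgeR adjusted p of 0.841 and 0.907).

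The genes whose pattern over the 6 libraries was most like that of the most abundant member of each family were found by the root mean square difference of mean-centred log2 CPM, among 14112 genes with a mean of at least 5 CPM. For AT5G56040 they were SYP71, a syntaxin, AP19, an adaptor protein gene, and AT5G23575, at differences of 0.059 to 0.079 on the log2 scale, where the median gene was at 0.50. For BAK1 they were AT1G56140, another leucine-rich repeat receptor kinase, AT1G79970 and AT1G26270, at 0.090 to 0.11, where the median gene was at 0.64. With 6 libraries of 2 treatments, such likeness describes these samples only.

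The labelled tissue was checked against marker genes. The 5 root meristem markers (PLT1, PLT2, CYCB1;1, CDKB2;1 and KNOLLE) were detected, summing to 115 to 129 CPM in Mock and 108 to 188 CPM after RGF1. The 3 root hair markers summed to 8.62 to 29.6 and 13.3 to 41.2 CPM, the 2 markers of maturing endodermis to 0 to 10.9 and 1.67 to 12.8 CPM, the 2 secondary wall xylem markers to 6.43 to 10.3 and 3.39 to 6.90 CPM, and the 3 root cap markers to 3.92 to 19.1 and 2.40 to 18.3 CPM. The 3 markers of green shoot tissue, CAB1, RBCS1A and PSBO1, summed to 192 to 745 CPM in Mock and 41.7 to 424 CPM after RGF1, and none of the markers was at 0 in all 6 libraries. Of these 18 markers the root hair gene RHS19, the cell cycle gene CDKB2;1 and PLT2 had all RGF1 libraries above all Mock libraries and IRX3 the reverse, patterns found in 7.3% and 6.18% of all tested genes. The log2 fold changes of RHS19, CDKB2;1 and PLT2 were 3.55, 0.22 and 1.23. In the same lists COBL9, CYCB1;1 and PLT1 had -0.86, -0.74 and -0.35, and EXPA7 and KNOLLE had 0.72 and 0.42, all with overlapping groups. No root hair or meristem marker passed in edgeR. DESeq2 called 1 of the 3 root hair markers upward and 1.43% of its 22012 genes. The part of these differences in the values of BAK1 was not tested.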

How the data were processed

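The deposited files hold whole-number read counts per gene, 1 table per library, which the authors had not normalised. TopHat2 2.1.1, HTSeq, DESeq2 and the build TAIR10 are named per the submitters' processing notes, without their roles; no source used here gives strand use or the treatment of multi-mapping reads. Per the labels' protocols, 50 ng of RNA was amplified without mention of molecular identifiers. Whether a group's 3 samples were grown or treated apart is not said in the labels, and the spread behind the p-values may be technical.

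RGF1 was compared with Mock over all genes under R 4.3.3 with edgeR 4.0.16 (TMM scaling, default low-count filter, quasi-likelihood F test, Benjamini-Hochberg adjustment); standard errors and 95% intervals come from the F statistic, and only the rows of the named genes are printed. DESeq2 1.42.0 and limma 3.58.1 (voom) were alternatives. The code was tested on simulated data. The labels do not say whether same-numbered samples were handled together, so the replicate numbers were checked as pairs. The correlation across genes of same-numbered libraries' deviations from their group means was 0.192, 0.229 and 0.322. For libraries of different numbers it was between -0.173 and -0.0524. Deviations from a group mean cancel out within the group, so these values depend on each other and cannot settle the pairing. The numbers were taken as pairs on this basis only, and the blocked value is printed where it changes a call. Gene models and sequences are from TAIR10.1 RefSeq, matched by locus identifier; identity was measured with BLAST 2.17.0. All 10 members are named; of each other list, the 4 tested genes with the smallest p. The members and lists were chosen with earlier results of these data known.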

Additional observations from a re-analysis of the deposited data

How the results depend on the processing

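The receptors' count of 0 calls held in all alternatives. The SERK count of 0 became 1 (BAK1) with the replicate block in edgeR, DESeq2 and limma voom and in edgeR with the block and pair 1 left out, and stayed at 0 otherwise. The 83 genes called overall became 302 with the replicate block, 264, 351 and 155 with the block and pair 1, 2 or 3 left out, 653 with DESeq2 and the block, 357 with voom and the block, 315 with DESeq2, 222 without the filter, and 40 (without RGF1 replicate 1) to 118 (without Mock replicate 1) when 1 library was left out. The pathway lists' count of 1 became 5 with the block, 3, 4 and 2 with the block and pair 1, 2 or 3 left out, 9 and 5 with the block in DESeq2 and voom, 5 with DESeq2 and 3 without the filter, and was 1 to 2 when 1 library was left out. The sign of a log2 fold change turned when 1 library was left out for AT3G24240 (-0.25 to 0.021, positive without Mock replicate 3), AT4G26540 (-0.017 to 0.86, negative without Mock replicate 1), SERK1 (-0.14 to 0.65, negative without RGF1 replicate 2) and SERK5 (-0.0064 to 0.41, negative without RGF1 replicate 1), and for AT4G26540 with the block and pair 1 left out (-0.036); the cause was not tested. The block changed no other member's call. The ratio of SERK to receptor level in Mock ranged from 0.442 to 0.630. The fits with the block and a pair left out or another tool were added after seeing the data.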
